A study of Mus musculus with 188 samples.

Results

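Krt36 and Krt84 are the hair-type keratin genes described here in single keratinocytes of mouse tail epidermis. They are 2 of 49585 gene rows of the count table and were found by matching each Ensembl identifier to its symbol. The study examined how single basal cells of the tail epidermis differ from each other. All cells formed 1 group, basal cells of the interfollicular epidermis at postnatal day 20 from Lrig1-CreERT2/RosaYFP mice, with 94 cells on each of 2 plates and 1 cell per well. The sort kept cells that lacked surface CD34, carried integrin alpha 6 and lacked the yellow fluorescent protein of the reporter. Lrig1 marks upper hair follicle cells, and CD34 marks the follicle bulge. The reporter is switched on by an inducible Cre under Lrig1, and when it was induced is not given, so cells without yellow signal need not all lie outside the Lrig1 lineage. No treatment and no number of animals is given in the labels, so cells were not treated as replicates and no p-value was computed.

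Keratin filaments form from pairs of a type I and a type II chain. Krt36 encodes a type I and Krt84 a type II chain of the hair, or hard, class, whose cysteine-rich members stiffen hair, nail and the filiform papillae of the tongue. Mouse tail epidermis alternates between scales, whose cells make hair-type keratins as they differentiate, and interscale skin, whose differentiating cells make Krt10 and Krt2. In both territories basal cells carry Krt5 and Krt14. In interscale skin Krt10 and Krt1 begin when a cell leaves the basal layer.

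The identifier ENSMUSG00000020916.8 is Krt36, which lies on the minus strand of chr11:100102007-100105626 in GRCm38, between the protein-coding genes Krt35 and Krt13 of the type I keratin cluster. The identifier ENSMUSG00000044294.7 is Krt84, on the minus strand of chr15:101525026-101532820, next to Krt82 in the type II cluster. No annotated gene overlaps either of them. Of 1622 stretches of 50 bases in the Krt36 transcript, 7 (0.432%) also occur in Krt31, and of 2591 in the Krt84 transcripts none occurs in another gene, so reads of close relatives can hardly have been counted as Krt36 or Krt84.

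The 250 bases before each start site are shown because levels of the genes are set side by side below. Both sequences are from RefSeq promoter tables of GRCm38.p6 and are written 5′ to 3′ on the gene's strand, for chr11:100105627-100105876 (minus) and chr15:101532821-101533070 (minus). Capitals mark TATATAA in Krt36, and in Krt84 the letters TTTATN or TTAATN followed by AA, AG, GA or GG on either strand, a form bound by HOXC13, a regulator of hair keratin genes.
Krt36: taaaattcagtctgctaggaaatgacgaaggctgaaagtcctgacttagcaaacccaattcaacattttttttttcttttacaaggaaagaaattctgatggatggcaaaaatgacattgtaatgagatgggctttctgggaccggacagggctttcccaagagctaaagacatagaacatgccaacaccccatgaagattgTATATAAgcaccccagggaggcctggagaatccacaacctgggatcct
Krt84: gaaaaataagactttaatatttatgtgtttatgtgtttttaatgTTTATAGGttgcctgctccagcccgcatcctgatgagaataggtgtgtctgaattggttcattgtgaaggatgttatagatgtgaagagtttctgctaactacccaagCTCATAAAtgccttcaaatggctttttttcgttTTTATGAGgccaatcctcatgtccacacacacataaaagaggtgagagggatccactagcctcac
TATATAA began 48 bases before the start of Krt36 and occurred in 3.04% of 32851 promoters of the same length. The HOXC13-type letters began 206, 98 and 65 bases before the start of Krt84, at 3 places, and occurred in 17.2% of those promoters, but they did not occur in the Krt36 window. On the reverse strand TATAAA, found in 12.4% of promoters, overlapped the first of the Krt84 places. Neither window held the AP-1 letters TGANTCA, found in 6.75% of promoters, or the LEF and TCF letters CTTTGAA, found in 4.46%. A match is a description of the letters and not of a bound site.

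Depth ran from 79868 to 1093805 gene counts a cell (median 369991), in which 5821 to 8720 genes were seen. A level is a cell's reads of the gene scaled to 1e6 of its gene counts (CPM). All cells passed the filters. The basal keratins Krt14, Krt5 and Krt15 were the most abundant per length, as the basal label says, although single cells also carried high Krt10. The T cell marker Cd3e, the Langerhans cell marker Cd207, the Merkel cell marker Krt20 and the bulge marker Cd34 had no read in any cell. Other genes listed here for the bulge were detected, as Postn reached 10 CPM in 88.8% of cells, Nfatc1 in 43.1% and Tbx1 in 17.02%. Listed Langerhans cell genes did so too, with Epcam at 17.02% and H2-Aa at 1.06%. The melanocyte genes Pmel, Dct and Mitf reached it in 5.85%, 4.26% and 4.26%. No listed T cell or Merkel cell gene reached it in any cell. These shares make no allowance for reads from other wells. Whether other cell types were present was not tested. Fewer molecules and less efficient capture cannot be told apart in a single well. Intervals and limits below cover counting error only, since amplified reads are not independent molecules.

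Krt36 was the more abundant of the pair. Over all cells it had 5977 reads, a pooled 77.2 CPM (exact Poisson 95% interval 75.3 to 79.2). Single cells averaged 95.3 ± 311 CPM (SD over the cells), with a lowest value of 0, a median of 14.1 and a highest of 3828 CPM. Single cells weighed on the mean, as the highest held 10.4% and the highest 2 together 19.1% of all Krt36 reads. A larger part, 46.8%, came from 32 wells in 4 columns that are described below. Krt84 had 2059 reads, a pooled 26.6 CPM (25.5 to 27.8). Its cells averaged 28.97 ± 66.4 CPM (SD over the cells), with a lowest value of 0, a median of 6.61 and a highest of 633 CPM. Per kilobase of exon, Krt36 reached a pooled 46.2 CPM and was the 10th of 54 keratin genes, while Krt84 reached 10.1 CPM and was the 14th. Krt14 led this order with 18814 CPM per kilobase.

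Both genes gave reads in nearly all wells, and these reads followed the position of the well. Krt36 had a read in 95.7% and Krt84 in 78.7% of the cells, and 62.2% and 39.4% of cells reached 10 CPM. In 4 columns of wells, columns 5 and 10 of plate 1 and columns 1 and 8 of plate 2, every well held 38 to 288 Krt36 reads, with a median of 76, against a median of 4 and a range of 0 to 623 in the wells of the other columns. In the same 32 wells Krt84 had 8 to 42 reads, with a median of 18, against a median of 2 and a range of 0 to 242 elsewhere. Thus 46.8% of all Krt36 reads and 31.4% of all Krt84 reads came from these 32 wells.

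The raised columns were rare among genes. A column was called raised for a gene when its lowest well held at least 5 reads and at least 5 times the median of the other wells plus 1. Of 20605 genes with a read, 6 (0.0291%) had such a column, and only Krt36 and Krt84 had more than 1 by this rule. Krt36 had 4 and Krt84 had 2, column 10 of plate 1 and column 8 of plate 2, which are also raised for Krt36. Lig1, Arl2, Agpat3 and Gpr108 had 1 column each. Within the 32 wells the Krt36 reads did not scale with depth (Spearman's rho -0.07), while genes of similar level had a median rho of 0.43 with depth in those wells. For Krt84 the rho was -0.41, beside a median of 0.21. In the order of columns 5 and 10 of plate 1 and columns 1 and 8 of plate 2, the median well held 24.2, 27.6, 16.2 and 37.1 Krt84 reads per 100 Krt36 reads. The source of the reads in these columns was not tested.

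**Figure D1:**
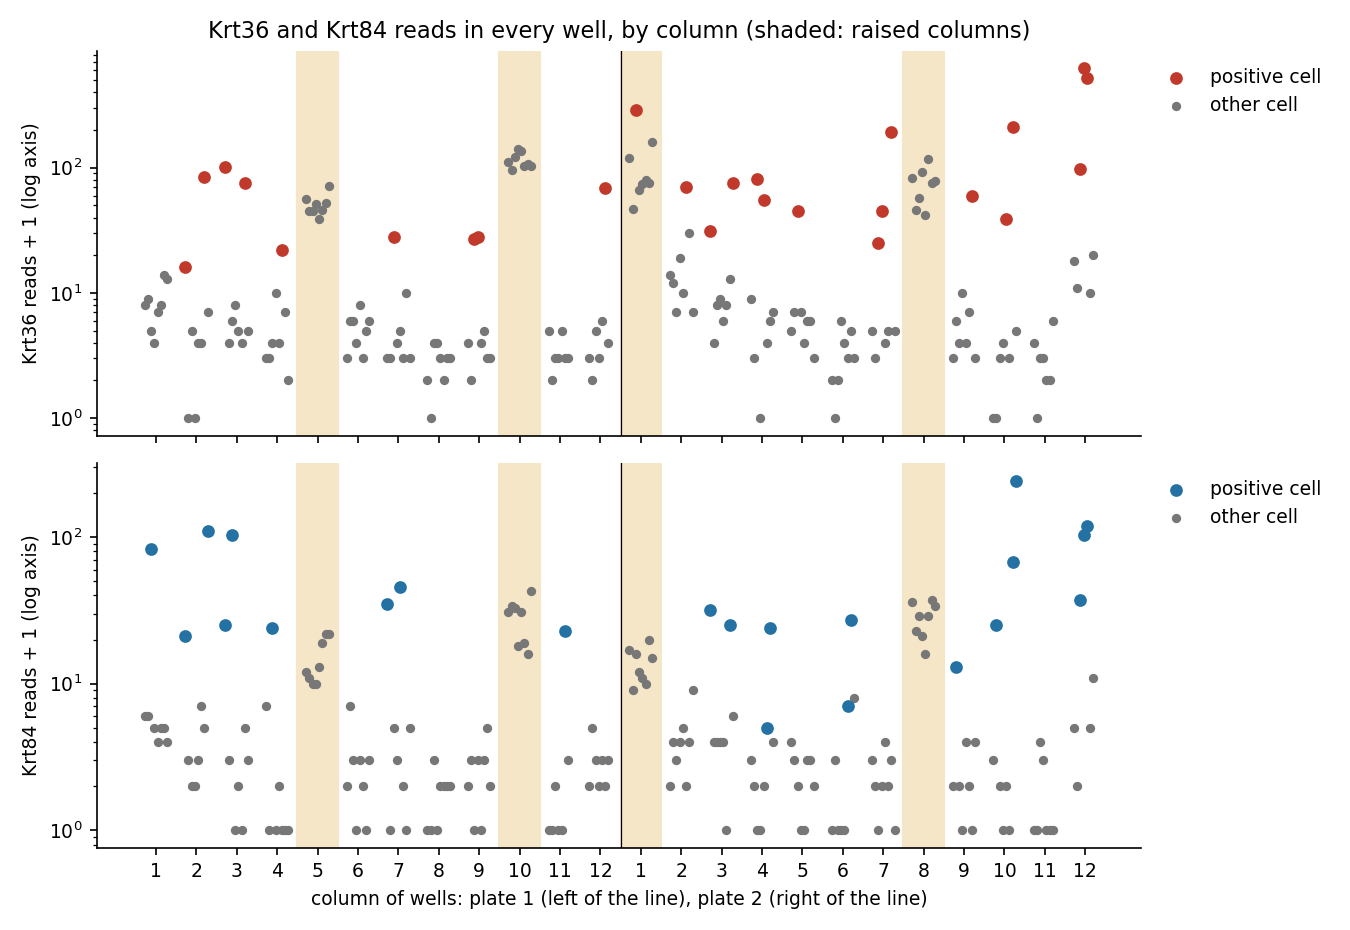
Reads plus 1 (log axis) of Krt36 (top) and Krt84 (bottom) in each well, by column of wells on plate 1 and plate 2, with wells A to H from left to right within a column. Coloured points are positive cells, grey points other cells, and shading marks the 4 columns in which every well held at least 38 Krt36 reads.

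A cell was therefore called positive for a gene only at 10 CPM or more and above 3 times the reads expected from other wells. The expected number was the largest of 3 values: the median of the other wells of the column, the median of the other wells of the lettered row, and a count from carry-over rates, where carry-over means reads of a gene in wells other than the one that holds nearly all of it. A lettered row was taken over both plates together, and a column within its own plate. The rates came from 14 genes with at least 80% of their reads in 1 well, and were 34.9 reads per 10000 in a well of the same row, 12.6 in the same column and 3.27 elsewhere. By this rule 25 cells were Krt36-positive, 13.3% of all (exact Clopper-Pearson 95% interval 8.79 to 19%), 9 on plate 1 and 16 on plate 2. Krt84-positive cells numbered 22, 11.7% (7.48 to 17.2%), 9 on plate 1 and 13 on plate 2.

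Krt36 levels ranged from 27.3 to 3828 CPM in the 25 positive cells, with a median of 181.4, against a median of 11.3 and a highest of 624 CPM in the other cells. Krt84 levels ranged from 15.9 to 633 CPM in its 22 positive cells, with a median of 84.5, against a median of 4.96 and a highest of 184.8 CPM in the other cells. The levels of positive and other cells overlap, and in the plot of reads by well the highest other cells are in the shaded columns. In those 32 wells all cells reached 10 CPM of Krt36 and 31 reached it for Krt84, but 1 was positive for Krt36, well C1 of plate 2 with 288 reads against 75 expected, and 0 were positive for Krt84. A cell of a raised column needs more reads to be called, so positive cells may be missed there. The Krt36-positive cell nearest the limit had 15 reads against 4 expected, and the nearest cell outside had 29 against 12. For Krt84 the nearest inside had 4 reads against 1.10, and 2 cells just outside had 6 against 2. Median depth was 322809 counts in Krt36-positive cells and 379492 in the other cells, and 374758 in Krt84-positive cells and 365598 in the other cells.

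Krt36 and Krt84 were detected together in few cells. Of the 40 cells positive for either gene, 7 were positive for both, 18 for Krt36 only and 15 for Krt84 only. The 7 cells were 3.72% of all cells (1.51 to 7.52%), 28% of Krt36-positive cells (12.1 to 49.4%) and 31.8% of Krt84-positive cells (13.9 to 54.9%), while Krt84 was positive in 9.20% of Krt36-negative cells (5.24 to 14.7%). The product of the shares of the 2 genes came to 2.93 cells. Plate 1 held 2 double-positive cells, against a product of 0.862, and plate 2 held 5, against a product of 2.21. More cells were thus positive for both than the product on each plate. The interval of 28% lay above 9.20% and overlapped its interval, and no test was made because the cells are not replicates.

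The 3 double-positive cells with most Krt36 sat in adjacent wells of column 12 of plate 2. Well D12 had 623 Krt36 reads (3828 CPM) and 633 CPM of Krt84. Well E12 had 519 Krt36 reads (1464 CPM) and 333 CPM of Krt84. Well C12 had 97 Krt36 reads (337 CPM) and 36 Krt84 reads (125.2 CPM). D12 and E12 held the highest levels of both genes among all cells. The 4 remaining wells of the column, A12, B12, F12 and G12, had 17, 10, 9 and 19 Krt36 reads and 4, 1, 4 and 10 Krt84 reads. Over 8556 genes the log2 profiles of D12 and E12 correlated at r = 0.499, where pairs of cells ranged from 0.376 to 0.551 with a median of 0.458. This put the 2 wells at percentile 96.8 of all pairs. Without this column 4 double-positive cells were left, against a product of 2.31, and Krt84 was positive in 18.2% of Krt36-positive cells (5.19 to 40.3%) and in 9.43% of Krt36-negative cells (5.38 to 15.1%).

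The other double-positive cells had lower levels. Well A3 of plate 1 had 201 CPM of Krt36 and 48.3 CPM of Krt84. Well G10 of plate 2, the deepest cell of the series, had 191 CPM of Krt36 and 61.3 CPM of Krt84. Well A3 of plate 2 had 47.9 CPM of Krt36 and 49.5 CPM of Krt84, and well A2 of plate 1 had 27.3 and 36.4 CPM. Krt36 exceeded Krt84 in 5 of the 7 cells.

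Cells positive for 1 gene only were the more frequent kind. The highest Krt84-only cells were C3 of plate 1 with 268 CPM, H10 of plate 2 with 233 CPM, C1 of plate 1 with 191 CPM and E7 of plate 1 with 189 CPM. H10 held 242 Krt84 reads and 4 Krt36 reads, and C3 held 5 Krt36 reads. The highest Krt36-only cells were G9, G7 and F2 of plate 2 with 327, 293 and 285 CPM and G3 of plate 1 with 279 CPM. G7 held 192 Krt36 reads and 2 Krt84 reads, and G9 held 59 Krt36 reads and no Krt84 read. In these cells the other gene of the pair was near the level of the median well outside the raised columns, 4 Krt36 or 2 Krt84 reads. Not every single-positive cell was of this kind. G3 of plate 2, Krt84 only, had 102.8 CPM of Krt84 and 51.4 CPM of Krt36. F4 of plate 2, Krt84 only, had 4 Krt84 and 3 Krt36 reads. C1 of plate 2, Krt36 only, had 15 Krt84 reads. A cell called positive for 1 gene can therefore hold reads of the other below its limit.

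**Figure D2:**
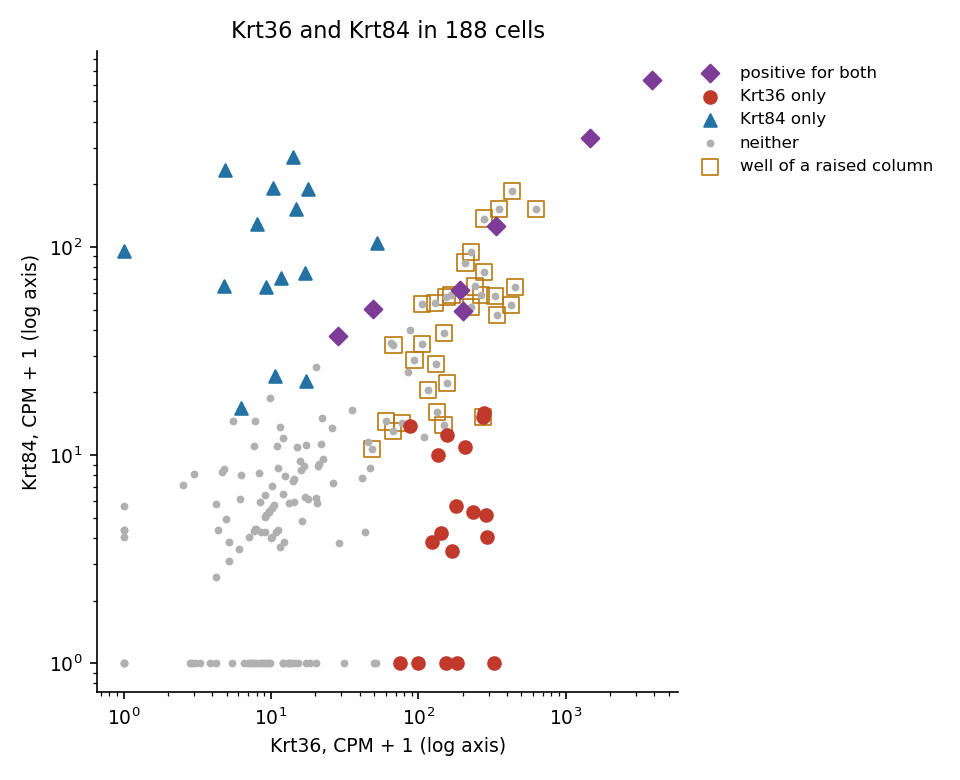
Krt84 against Krt36 in each cell, CPM plus 1 on log axes. Symbols give the 7 cells positive for both, the 18 for Krt36 only, the 15 for Krt84 only and the cells with neither, and squares mark wells of raised columns, in which both genes are high together.

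Across all cells the levels of the pair correlated, with Spearman's rho 0.47 and Pearson's r 0.49 on log2(CPM + 1) over all cells, and with rho 0.45 on plate 1 and 0.50 on plate 2. All points share plates, library preparation and sequencing, and the raised columns carry both genes. Without the cells of those columns rho was 0.28, without column 12 of plate 2 as well it was 0.22, and over all cells after subtraction of the expected reads it was 0.14. Likeness was measured by rho on each plate, taking whichever plate's value was closer to 0, for genes that 5% of cells or more held at 10 CPM. By it Krt84 was the gene most like Krt36 and Krt36 the gene most like Krt84. For each member 1 of 10532 genes (0.00949%) reached 0.3 on both plates, and that gene was the other member. This first place rested on the raised columns, for Krt84 came 31st with Krt36 and Krt36 came 15th with Krt84 without them, and after subtraction of the expected reads the value was 0.13 and neither gene was first for the other.

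Over all cells the next genes by likeness were far weaker. After Krt84 at 0.45, those most like Krt36 were H2-T-ps at 0.26, Wdsub1 and Map4k4 at 0.25, Krt25 at 0.24, Ap2a1, Cryzl1 and Fam110a at 0.23, and L3hypdh and Supv3l1 at 0.22, and the least like were 2510039O18Rik at -0.25, Ccpg1os at -0.22, Mkks and Zfp592 at -0.21 and Thap12 at -0.20. For Krt84 the next were Map4k4 at 0.24, Arhgap39 at 0.23, Ppif at 0.22, Mbd6, Aldh6a1, Gtf2f1, Usp15 and Gpr107 at 0.21, and Arl13b at 0.20, and the least like were Btbd7 at -0.26, Ugdh at -0.26, Hunk at -0.24, Sec61a1 at -0.22 and Zfp943 at -0.21. All these values cover 94 cells a plate, and in sparse counts they are not read as relations. Krt25, an inner root sheath keratin, was the one other keratin among them.

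Cells positive for Krt36 or Krt84 included both dividing and non-dividing cells. A cell counted as G2 and mitosis when at least 25% of 33 genes of that list reached 10 CPM, and as S phase when at least 50% of 22 genes did. Of the Krt36-positive cells 7 of 25 were in the G2 and mitosis class, 28% (12.1 to 49.4%), against 35 of the other cells, 21.5% (15.4 to 28.6%). Of the Krt84-positive cells 5 of 22 were, 22.7% (7.82 to 45.4%), against 37 of the other cells, 22.3% (16.2 to 29.4%). In the S phase class were 14 of 25 Krt36-positive cells, 56% (34.9 to 75.6%), against 83 of the other cells, 50.9% (43 to 58.8%). For Krt84 these were 11 of 22 positive cells, 50% (28.2 to 71.8%), against 86 of the other cells, 51.8% (43.9 to 59.6%). In these 4 comparisons the interval of the positive cells held the share of the other cells. With 25 and 22 positive cells these intervals are wide, so this does not show that the shares are equal. Both classes counted genes at 10 CPM without the carry-over rule. With expected reads subtracted first, 16% of Krt36-positive cells and 11.7% of the other cells were in the G2 and mitosis class. For Krt84 these shares were 13.6% and 12.05%. After the same subtraction, 40% of Krt36-positive cells and 22.1% of the other cells were in the S phase class. Without subtraction, the 7 double-positive cells held 3 G2 and mitosis cells and 3 S phase cells. Of these 3 G2 and mitosis cells, D12 of plate 2 had 27.3% of the list at 10 CPM and 0 CPM of Mki67. C12 of plate 2 had 33.3% of the list and 6.96 CPM of Mki67, and A3 of plate 2 had 66.7% of the list.

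The plates did not give the same picture. For S phase, 8 of 9 Krt36-positive cells of plate 1 were in the class, 88.9% (51.8 to 99.7%), against 43 of 85 other cells, 50.6% (39.5 to 61.6%). On plate 2 it was 6 of 16 positive cells, 37.5% (15.2 to 64.6%), against 40 of 78 other cells, 51.3% (39.7 to 62.8%). The share was higher in positive cells on plate 1 and lower on plate 2. For G2 and mitosis, 2 of 9 Krt36-positive cells of plate 1 were in the class, against 23 of 85 other cells, and 5 of 16 on plate 2, against 12 of 78 other cells. The Krt84-positive cells in this class were 1 of 9 on plate 1, against 24 of 85 other cells, and 4 of 13 on plate 2, against 13 of 81 other cells.

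**Figure D3:**
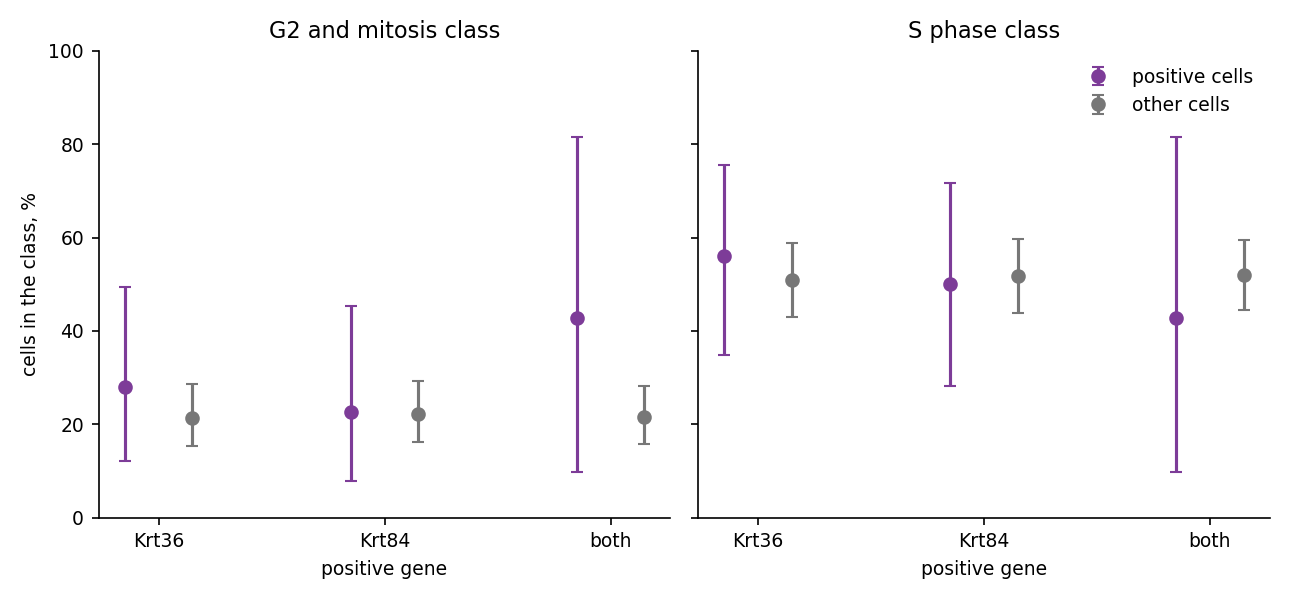
Share of cells in the G2 and mitosis class (left) and in the S phase class (right), for cells positive for Krt36, Krt84 or both (purple, 25, 22 and 7 cells) beside the other cells (grey). Bars are exact Clopper-Pearson 95% intervals, which cover counting error only. Each pair of intervals overlaps, which with so few positive cells does not show equal shares.

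Mitotic genes were present in single positive cells. Well G3 of plate 1, with 279 CPM of Krt36, had 1802 CPM of Mki67, a proliferation antigen, and 2449 CPM of Top2a, the topoisomerase of dividing cells, and 93.9% of the G2 and mitosis list at 10 CPM. Well F11 of plate 1, with 151.2 CPM of Krt84, had 564 CPM of Mki67 and 72.7% of the list. The double-positive well A3 of plate 2 had 66.7% of the list but 47.9 CPM of Mki67. The means over the list followed such cells. In Krt36-positive cells, 1 of 24 tested G2 and mitosis genes had at least a 2-fold higher mean CPM than in the other cells and 4 had at most a 0.5-fold mean, beside 2.57% and 7% of all 8556 genes with a mean of 10 CPM. The lower ones were Cdc20, Cenpa, Kif2c and Dlgap5, genes of the spindle and kinetochore, with ratios of 0.344, 0.342, 0.194 and 0.233. The higher one was Top2a, at 142.2 ± 486 CPM in positive cells and 57.7 ± 150 CPM in the other cells, a ratio of 2.46 that was 4.47 on plate 1, which holds G3, and 1.08 on plate 2. The median ratio of the list was 0.712, against 0.976 over all genes. In Krt84-positive cells 1 of 24 was higher and 6 were lower, beside 3.3% and 8.05% of all genes, with a list median of 0.830, against 0.984 over all genes. The lower ones were Top2a, Ube2c, Plk1, Kif23, Kif2c and Dlgap5. Of these, Kif23 had a ratio of 0.0427 on plate 1 but 2.15 on plate 2, while the others were below 1 on both plates. The higher one was Ckap2, a spindle protein gene, at 38.9 ± 92.4 CPM in positive cells and 17.3 ± 81.8 CPM in the other cells, while Top2a averaged 20.7 ± 38.4 CPM in positive cells and 75.3 ± 238 CPM in the other cells. Of 19 tested S phase genes 0 were higher and 0 lower with Krt36, and 0 higher and 2, Rrm2 and Clspn, lower with Krt84, with list medians of 1.14 and 0.890. In the 7 double-positive cells 1 of 24 G2 and mitosis genes was higher and 14 were lower, beside 6.86% and 20.1% of all genes, with a list median of 0.388 against 0.918 over all genes. Mki67 averaged 11.3 CPM there, against 73.8 CPM in the other cells, although 3 of the 7 were in the G2 and mitosis class. The summed list averaged 440 CPM in double-positive and 925 CPM in other cells, but its medians were 376.5 and 280.9 CPM. On plate 1, with 2 double-positive cells, these means were 280 and 1301 CPM, and on plate 2, with 5, they were 504 and 536 CPM. Single genes went both ways on plate 2, as with Cenpe at a ratio of 2.05 and Mki67 at 0.356.

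The suprabasal scores had rho values near 0 with both members, while means of suprabasal genes were mostly higher in Krt36-positive cells. The suprabasal score, the mean z score of 11 genes such as Krt1, Krt10, Krtdap and Calm4, had rho 0.03 with Krt36 (-0.06 on plate 1 and 0.09 on plate 2) and -0.01 with Krt84 (-0.15 on plate 1 and 0.12 on plate 2). The basal score of 14 genes had rho -0.06 with Krt36 (0.08 and -0.16) and -0.08 with Krt84 (0.09 and -0.23). The late differentiation score of 8 genes, among them Krt2, Lor and Casp14, had rho -0.08 with Krt36 and -0.18 with Krt84. In sparse counts these values are not read as relations. Of the Krt36-positive cells 15 of 25 lay above the median suprabasal score, 60% (38.7 to 78.9%), and of the Krt84-positive cells 8 of 22, 36.4% (17.2 to 59.3%).

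In Krt36-positive cells 8 of 10 tested suprabasal genes had a higher mean than in the other cells, as did 3982 of all 8556 genes. Of the 10 genes, 0 were at least 2-fold higher and 2, Dsc1 and Klk10, were at most 0.5-fold, beside 2.57% and 7% of all genes, and the list median was 1.19, against 0.976 over all genes. Krt10, the type I keratin of the first suprabasal layer of interscale skin, averaged 7576 ± 10350 CPM in Krt36-positive cells and 4448 ± 8508 CPM in the other cells, a ratio of 1.70 that was 0.544 on plate 1 and 2.10 on plate 2. Krt1, its type II partner, averaged 3819 ± 7985 CPM in Krt36-positive cells and 2406 ± 4976 CPM in the other cells. The median cell had 1377 CPM of Krt10 in positive and 855 CPM in other cells, but 843 CPM of Krt1 in positive and 875 CPM in other cells. Medians of the epidermal differentiation genes Krtdap and Calm4 were 5336 and 3317 CPM in positive cells, against 3839 and 2542 CPM in the other cells. The desmosomal cadherin gene Dsg1a had a median of 169.3 CPM in positive cells and 103.2 CPM in the other cells, and its mean was higher on both plates, with ratios of 1.69 and 1.41. Krt10, Krt1, Krtdap and Calm4 had ratios below 1 on plate 1 and above 1 on plate 2. In Krt84-positive cells 3 of 10 had a higher mean, as did 4072 of all genes, and 0 of 10 were at least 2-fold higher and 1, Klk10, at most 0.5-fold, beside 3.3% and 8.05% of all genes. The list median was 0.925, against 0.984 over all genes. Krt10 there averaged 5365 ± 8267 CPM, against 4797 ± 8900 CPM in the other cells, and the medians were 882 and 882 CPM. Its ratio was 0.266 on plate 1 and 1.47 on plate 2. With Krt84, too, Krt1, Krtdap and Calm4 had ratios below 1 on plate 1 and above 1 on plate 2. All 14 basal genes stayed within 2-fold for both members, with medians of 0.885 and 0.952, and 1 of 14 had a higher mean with Krt36 and 4 of 14 with Krt84. Krt14 averaged 29440 ± 15433 CPM in Krt36-positive cells and 32866 ± 13875 CPM in the other cells. In Krt84-positive cells it averaged 29774 ± 13118 CPM, against 32760 ± 14222 CPM in the other cells.

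The double-positive cells split into a Krt10-high and a Krt10-low kind. Krt10 was 23481 CPM in D12, 14928 CPM in E12, 20456 CPM in C12 and 26639 CPM in A3 of plate 2, with Krt14 at 6114, 12702, 10822 and 9369 CPM. In A3 and A2 of plate 1 and G10 of plate 2, Krt10 was 638, 1253 and 807 CPM, with Krt14 at 39046, 25880 and 45290 CPM. By suprabasal score the first 4 cells ranked 5th, 47th, 37th and 19th from the top of all cells, and the other 3 lay below the median. At a limit of 10000 CPM of Krt10, chosen after the values were seen, 4 of 7 double-positive cells were above it, 57.1% (18.4 to 90.1%), against 3 of 18 Krt36-only cells, 16.7% (3.58 to 41.4%), 1 of 15 Krt84-only cells, 6.67% (0.169 to 31.9%), and 24 of the cells with neither, 16.2% (10.7 to 23.2%). Of the 4 cells, 3 are the neighbouring wells of column 12, and all 8 positive cells above the limit are on plate 2, although plate 1 held 11 cells above it, all negative for both genes. Mean ratios over the 7 cells rest on these few: 3 of 10 suprabasal genes were higher, Krt10, Krt1 and Calm4, and 2, Dsc1 and Klk10, were lower, beside 6.86% and 20.1% of all genes, with a list median of 1.59 against 0.918 over all genes. For Krt10 the ratio was 2.76, but 0.252 on plate 1 and 3.19 on plate 2.

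**Figure D4:**
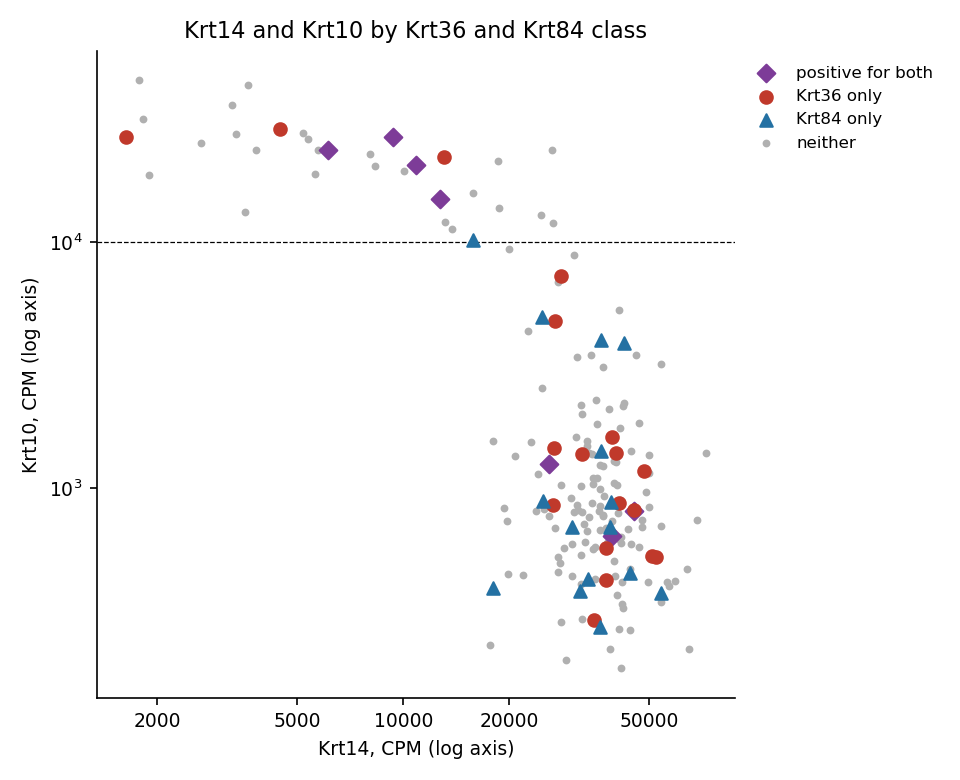
Krt10 (upright axis) against Krt14 (level axis) in each cell, CPM on log axes, with cells positive for both genes (7), Krt36 only (18), Krt84 only (15) and neither. The dashed line is 10000 CPM of Krt10. Positive cells lie in both the Krt14-high group below the line and the Krt10-high group above it.

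Over all cells, means of the interscale and scale genes Krt2, Slc1a3, Edaradd and Dlx1 went opposite ways with the 2 members. On plate 1 only Dlx1 did so. Ratios there with Krt36 and Krt84 were 0.408 and 0.272 for Krt2, 0.642 and 0.677 for Slc1a3, and 1.59 and 1.60 for Edaradd. On plate 2 they were 1.73 and 0.820 for Krt2, 0.312 and 1.51 for Slc1a3, and 1.64 and 0.391 for Edaradd. Krt2, the interscale keratin of late suprabasal cells, averaged 5497 ± 9972 CPM in Krt36-positive cells and 3646 ± 8883 CPM in the other cells, and 2880 ± 5790 CPM in Krt84-positive cells and 4027 ± 9379 CPM in the other cells. G7 of plate 2 carried 37031 CPM of Krt2 and 26640 CPM of Krt10 together with its 293 CPM of Krt36. Slc1a3, a glutamate transporter gene linked to basal cells of the scale, averaged 5.58 ± 10.4 CPM in Krt36-positive cells and 13.1 ± 35.7 CPM in the other cells, a ratio of 0.427, and 15.4 ± 53.5 CPM in Krt84-positive cells and 11.6 ± 30.2 CPM in the other cells. Edaradd, an adaptor of the ectodysplasin receptor, averaged 117.4 ± 141.98 CPM in Krt36-positive cells and 73.2 ± 104.3 CPM in the other cells, and 68.97 ± 92.1 CPM in Krt84-positive cells and 80.4 ± 113.02 CPM in the other cells. Its receptor Edar had no read in any cell. Dlx1, a homeobox gene linked to basal cells of the interscale, reached 10 CPM in 9 cells. It averaged 10.7 ± 36.1 CPM in Krt36-positive cells and 1.83 ± 8.94 CPM in the other cells, with ratios of 6.27 on plate 1 and 7.20 on plate 2. In Krt84-positive cells it averaged 0.335 ± 1.26 CPM, against 3.36 ± 16.6 CPM in the other cells, with ratios of 0 and 0.226. Its mean over all cells, 3.01 CPM, was below the 10 CPM set for mean ratios. None of these differences was tested, and the SD between cells gives their spread and does not measure a difference of means.

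Regulators of hair keratins were detected in positive and in other cells. Hoxc13, a homeobox factor of hair and nail, reached 10 CPM in 55.3% of cells and averaged 48.2 ± 78.1 CPM in Krt36-positive cells and 46.1 ± 68.3 CPM in the other cells, with a rho of 0.15 with Krt36 and 0.14 with Krt84. Hoxc13 averaged 32.8 ± 47.96 CPM in Krt84-positive cells and 48.2 ± 71.7 CPM in the other cells. Of 5 tested regulators and partners, 0 were 2-fold higher or lower with either member. In double-positive cells 2 of 5 were higher and 1 was lower, beside 6.86% and 20.1% of all genes. Foxn1, a factor of hair and nail differentiation, had a ratio of 4.97 and Tchh, which encodes trichohyalin, a ratio of 2.73, while Msx2, a homeobox factor of hair matrix cells, had a ratio of 0.392. The Foxn1 ratio was 0 on plate 1, where neither of 2 cells held a read, and 6.63 on plate 2.

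Other hair-type keratins were mostly rarer than the pair. Krt32, a type I hair cuticle keratin, was positive in 44 cells, the most of the family, with a pooled 36.2 CPM, and 6 of these cells were also Krt36-positive and 4 Krt84-positive. It averaged 20.05 ± 34.2 CPM in Krt36-positive cells and 41.6 ± 87.4 CPM in the other cells, a ratio of 0.481. Krt31, a type I hair keratin also reported in tail scales, had 6 positive cells, of which 1 was Krt36-positive and 2 were Krt84-positive. Positive cells numbered 10 each for Krt33a and Krt87, 8 each for Krt83 and Krt86, 6 for Krt33b, 5 for Krt35, 4 for Krt81 and 1 for Krt34. Krt82 had 9 reads in 4 cells and no positive cell. Krt39 and Krt40 had no read in any cell, which by a floor of 3 counts limits cells with a read to 1.60% and sets no limit on cells that express the gene below detection. Of the 8 Krt86-positive cells 4 were also Krt36-positive and 2 Krt84-positive. Keratin-associated protein genes, which encode the matrix between hair keratins, had a read for 23 of 57 and a pooled 31.8 CPM. Krt85 was not analysed here.

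**Figure D5:**
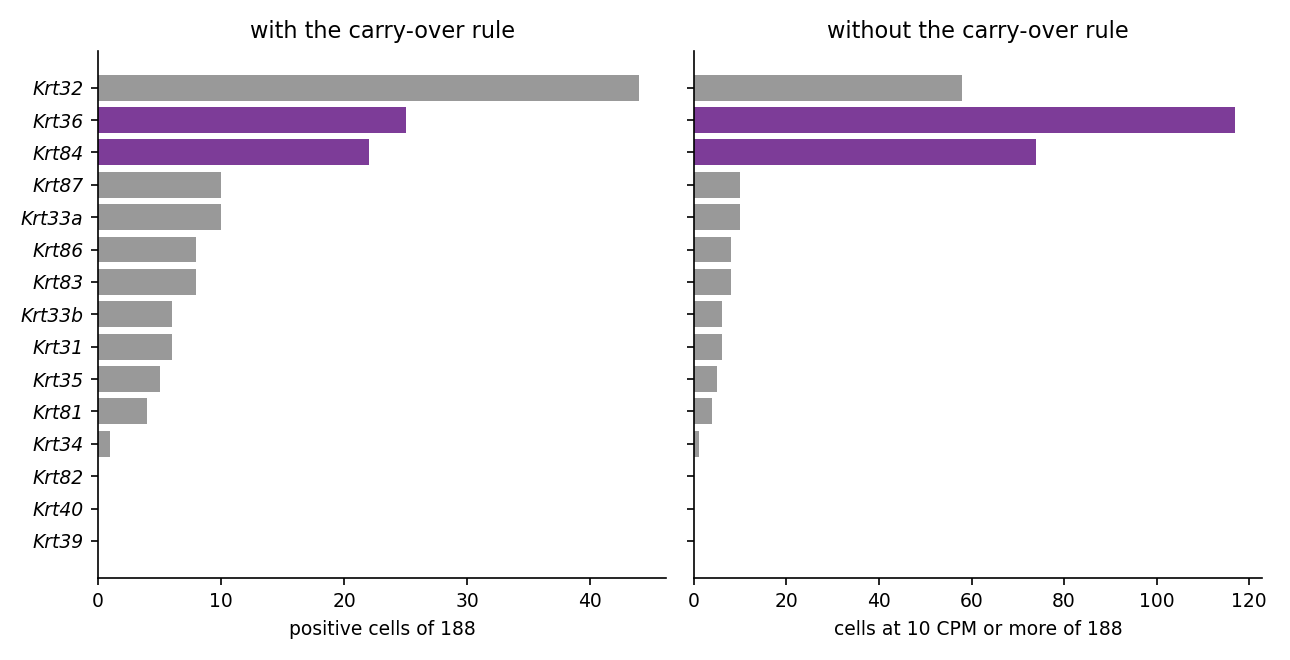
Number of cells positive for each hair-type keratin gene (left) and at 10 CPM or more without the carry-over rule (right), with Krt36 and Krt84 in purple. Krt36 has 25 positive cells and Krt84 22, both fewer than reach 10 CPM (62.2% and 39.4% of cells), while the genes from Krt87 to Krt34 have the same number in both panels.

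Among the remaining lists a few genes had different means, and none of these differences could be tested. Among the wound-type keratins Krt6a averaged 258 ± 739 CPM in Krt36-positive cells and 118.8 ± 358 CPM in the other cells, a ratio of 2.18 that was 0.832 on plate 1 and 3.73 on plate 2. Epcam, an adhesion molecule listed here for Langerhans cells, averaged 4.02 ± 11.3 CPM in Krt36-positive cells and 21.5 ± 57.4 CPM in the other cells, and 1.73 ± 3.43 CPM in Krt84-positive cells and 21.5 ± 56.9 CPM in the other cells. It was lower in the positive cells on both plates for each member, with ratios of 0.136 and 0.234 for Krt36 and 0.110 and 0.0578 for Krt84. Tbx1, a factor of follicle bulge cells, averaged 23.8 ± 50.8 CPM in Krt36-positive cells and 11.6 ± 31.6 CPM in the other cells, with ratios of 0.487 on plate 1 and 3.17 on plate 2. It averaged 28.04 ± 54.1 CPM in Krt84-positive cells and 11.3 ± 31.2 CPM in the other cells, with ratios of 2.00 on plate 1 and 2.77 on plate 2. Dcn, a fibroblast proteoglycan gene, averaged 56.7 ± 131.8 CPM in Krt84-positive cells and 21.5 ± 53.7 CPM in the other cells, while the fibroblast markers Pdgfra and Lum had no read in any cell. The late genes Lor and Casp14 averaged 5.13 ± 14.6 and 8.71 ± 27.7 CPM in Krt84-positive cells, against 18.7 ± 47.8 and 29.5 ± 70.8 CPM in the other cells. With Krt36, the late gene Asprv1 and the upper follicle gene Lgr6 had ratios of 0.461 and 0.400, which were 0.999 and 0.909 on plate 1 and 0.247 and 0.183 on plate 2. With Krt84 their ratios were 1.42 and 1.59. The summed level of the 7 upper hair follicle genes was 42.6 to 502 CPM in Krt36-positive cells, against 9.61 to 8037 CPM in the other cells, and 9.61 to 1104 CPM in Krt84-positive cells, against 19.7 to 8037 CPM in the other cells. Of that list Gata6 was at 0 in every cell, and the part of upper follicle cells in these results was not tested.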

How the data were processed

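Single-cell Smart-seq2 libraries of 188 cells were analysed, 1 cell per sample and all in 1 group. The authors deposited raw counts of reads for each gene, whole numbers that they had not normalized. Trimming, alignment and counting tools listed in the submitters' processing notes are STAR 2.5.2b, cutadapt 1.13 and HTSeq 0.6.0, with build GRCm38. The labels state neither the counting strand nor the annotation. The table has 49585 gene rows and 92 spike-in rows, and 49326 identifiers matched a symbol.

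Counts were scaled here to CPM over the non-spike-in total, which ran from 79868 to 1093805. Cells needed 50000 counts, 1500 genes and at most 15% mitochondrial counts, and all passed. Since each well received 1 sorted cell, doublets were not called. A score is the mean z score, on log2(CPM + 1), of a list's genes that reached 10 CPM in 5% of cells or more, members left out, and mean ratios cover genes with a mean of 10 CPM. The named genes were both members, all hair-type keratin and tail scale list genes, per member the 10 highest and 5 lowest rho on the plate nearer to 0, and per other list up to 5 abundant genes and those at 2-fold or 0.5-fold. Members, the 19 lists and these rules were chosen with earlier results of these data known, and the column and row medians, the raised-column rule and 2 left-out sets of columns after the well map was seen. The mean ratios, the positive rule and the rho ranking were tried on simulated data, the mean ratios with 200 changed genes. The simulation of the positive rule had 1 raised column and these data have 4, so it does not give the rule's error rate here. Python 3.11.15, NumPy 2.4.6, SciPy 1.17.1, pandas 2.3.3 and, in R 4.3.3, scran 1.30.0 were used. Positions are from GENCODE M21.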

Additional observations from a re-analysis of the deposited data

How the results depend on the processing

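The count of positive cells depended mainly on the rule for reads from other wells. With 10 CPM and no carry-over rule, 62.2% of cells were Krt36-positive, 39.4% Krt84-positive and 33% positive for both, and with 1 read or more 95.7%, 78.7% and 76.1%, against 13.3%, 11.7% and 3.72% as reported. At 10 times the expected reads the shares were 4.79% for Krt36 and 7.45% for Krt84, and after subtraction 22.9% for Krt36. The rho of the pair was 0.47, 0.14 after subtraction and 0.28 without the 4 raised columns, and its Pearson r was 0.49, or 0.41 at a pseudocount of 0.1. The rho of members with the scores stayed between -0.23 and 0.18 in 88 values; Krt36 reached 0.17 with G2 and mitosis and Krt84 0.10 with S phase under spike-in scaling, and Krt36 0.12 with S phase after subtraction. Krt36-positive cells in the G2 and mitosis class were 68% at 10% and 8% at 50% of the list and 50% after thinning to 75000 counts, where 10 CPM is less than 1 read, against 52.1%, 9.20% and 35.2% of the other cells. For Krt84 they were 59.1% at 10% of the list and 50% after thinning, against 53.6% and 35.2% of the other cells. The S phase class held 88.9% of Krt36-positive cells on plate 1 only, against 50.6% of the other cells, and after subtraction 40%, against 22.1%. Of Krt84-positive cells it held 27.3% after subtraction and 73.1% after thinning, against 24.1% and 65.4% of the other cells. Genes at least 2-fold higher with Krt36 numbered 220, 11 at a mean of 50 CPM, 2623 without a filter, 630 on plate 1 only and 434 on plate 2 only, and lower ones 599, 46, 7747, 1366 and 1063, and 1027 after subtraction. With Krt84 the higher ones were 282, 15, 2599, 646 and 500, and 446 after subtraction, and the lower ones 689, 35, 8039, 1548 and 1127. The larger counts on single plates rest on fewer positive cells. Under every other alternative run, a share stayed within its exact interval, a rho within the difference between the plates or 0.05 and a gene count within 1.5 times. Correlations with the scores lay near 0 and changed sign between settings, as for Krt36 with the suprabasal score, 0.03 over all cells and -0.06 on plate 1 (Spearman). Leaving out the raised columns or column 12 of plate 2 was chosen after seeing the data. In raised columns a positive cell needs over 3 times the column's median, which limits what can be detected there. No paired analysis was possible because all cells belong to 1 group.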
